A study of Mus musculus with 6 samples.

Results

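Oviduct secretory-like nuclei were found in a gonadal fat library of aged female mice. They were chosen by measured counts from single-nucleus RNA sequencing (snRNA-seq). A nucleus of the 2 visceral adipose tissue (VAT) libraries was a member when it held over 500 genes, over 1000 UMIs (unique molecular identifiers, each counting 1 captured RNA molecule) and under 15% mitochondrial UMIs. It also had to hold at least 4 UMIs of Ovgp1 and Pax8 together, at most 1 UMI summed over 4 cilium genes (Dnah12, Dnah6, Spag17, Hydin), and at most 1 UMI summed over 6 markers of other types (Ptprc, Skap1, Ptprb, Upk3b, Plin1, Lhcgr). The rule found 338 nuclei among the 27074 nuclei kept in all 6 libraries, and all 338 came from VAT 24 months replicate 2.

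The series measured nuclear RNA of white fat of female C57BL/6J mice in 6 libraries, with 2 libraries per group and no genetic change or treatment. Inguinal subcutaneous fat (SAT) was taken from young mice of 2 months and from old mice of 24 months, and gonadal VAT from the old mice. The labels give 24 months for the older mice, whereas the design text gives 26 months. Fat was collected from 2 mice per age by the study's methods, and which SAT and VAT libraries share a mouse is not stated. The libraries held 8061862 to 16226690 UMIs, and VAT 24 months replicate 2 held the most, over 11341 barcodes. Per kept nucleus its median was 1592 UMIs, against 1878 UMIs in VAT 24 months replicate 1. The kept nuclei of VAT 24 months replicate 2 had a median mitochondrial share of 5.07%, the highest of the 6 libraries, against 0.776% in VAT 24 months replicate 1.

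The oviduct carries eggs and early embryos from the ovary to the uterus and lies beside the gonadal fat of the mouse. Its lining holds secretory cells, which release the fluid in which fertilisation takes place, and multiciliated cells, which move that fluid. Ovgp1 encodes oviductin, a secreted glycoprotein that coats the egg, and Pax8 is a transcription factor of the Mullerian duct lineage that secretory cells keep in adult life. Pax8 is also active in thyroid and kidney. Ovgp1 lies on chromosome 3 at 105881027 to 105894739 on the plus strand of GRCm39, and Pax8 on chromosome 2 at 24309418 to 24365617 on the minus strand.

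Oestrogen receptor drives much of the secretory programme of the oviduct, and 2 genes of this programme are shown with their upstream sequence because both carry the hexamer AGGTCA, which several nuclear receptors recognise. The sequences are the 250 bases before the annotated start (RefSeq, GRCm38.p6, plus strand), at chr3:105973552-105973801 for Ovgp1 and chr9:111019042-111019291 for Ltf. Capitals mark the hexamer, searched on both strands.
Ovgp1: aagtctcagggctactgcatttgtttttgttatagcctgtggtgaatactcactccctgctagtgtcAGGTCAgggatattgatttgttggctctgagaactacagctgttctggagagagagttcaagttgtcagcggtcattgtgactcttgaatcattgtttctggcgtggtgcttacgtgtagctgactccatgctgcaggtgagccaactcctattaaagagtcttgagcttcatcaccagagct
Ltf: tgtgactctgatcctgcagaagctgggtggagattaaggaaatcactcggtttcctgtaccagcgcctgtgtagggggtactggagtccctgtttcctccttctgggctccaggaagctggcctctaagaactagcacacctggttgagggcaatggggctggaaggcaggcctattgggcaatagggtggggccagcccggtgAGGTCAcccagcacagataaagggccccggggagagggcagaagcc
The hexamer ended 177 bases before the start in Ovgp1 and 40 bases before it in Ltf. It was present in 14.0% of all 32851 upstream windows. Among the 20 leading genes given further on, 16 had 21 windows between them, of which 4 (1 each of Mecom, Ltf, Bcat1 and Bmpr1b) held the hexamer. The Pax8 window did not hold it. The full palindromic oestrogen response element was in 0 of these 21 windows, in 0 of the 2 windows of Ovgp1 and Pax8, and in 0.0639% of all windows. These matches describe letters only.

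The members made up 6.67% of the 5070 kept nuclei of VAT 24 months replicate 2 (exact Clopper-Pearson 95% binomial interval 5.995 to 7.388%). The share depended on the rule and the filters, and was 3.51% with Pax8 alone at 2 UMIs, 4.215% over every deposited barcode and 11.1% with a mitochondrial limit of 5%. VAT 24 months replicate 1 held 0 members among 4434 nuclei, for which a floor of 3 counts allows a share of up to 0.0677% and the exact interval one of up to 0.0832%. In the SAT libraries the same counts were met by 0 of 4595, 0 of 5776 and 0 of 2490 nuclei, and by 1 of 4709 nuclei in SAT 24 months replicate 2. That nucleus held 4 UMIs of Ovgp1, 0 of Pax8 and 0 of Padi1, Mecom and Plekhs1. Over all kept nuclei, Ovgp1 was at 518 CPM (UMIs of a gene per 1000000 UMIs, summed over nuclei) in VAT 24 months replicate 2 and at 5.32 to 16.6 CPM in the other 5 libraries. The members are thus a set from 1 library, and which mouse it came from is not stated. The rule was made on these counts, so no difference in share between groups or ages was tested, and the levels below have no replicate check. All intervals are 95% intervals that cover counting error only. Members shared 0 to 2 barcodes with each of the other libraries.

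**Figure D1:**
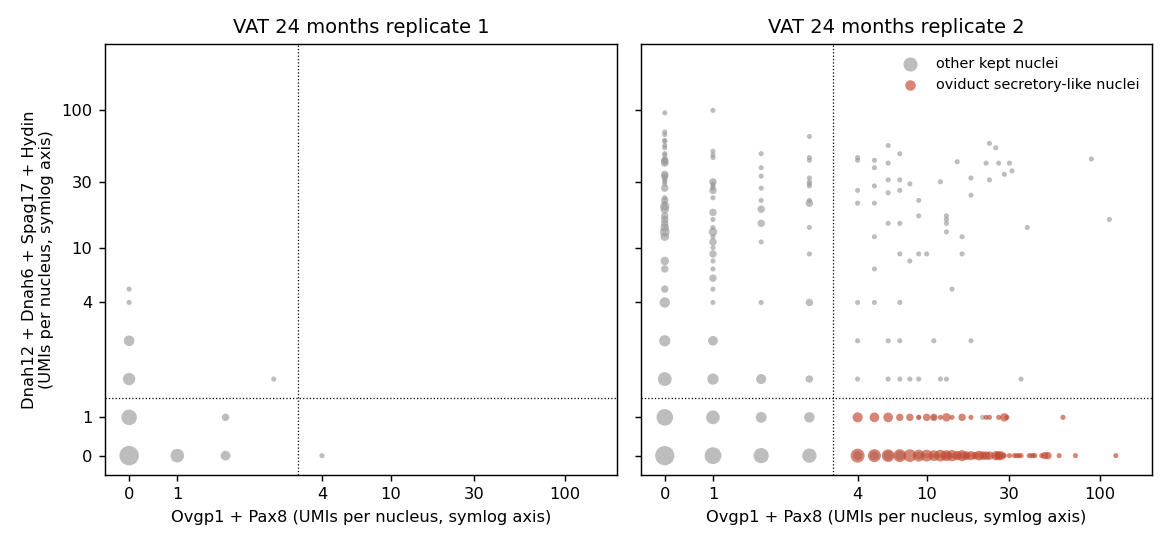
UMIs of Ovgp1 and Pax8 (horizontal axis) against UMIs of 4 cilium genes (vertical axis) for each kept nucleus of both VAT libraries, on symlog axes, with point area growing with the number of nuclei at that position and dotted lines at the limits of the rule. The 338 members (red) lie at the lower right of replicate 2, where 52 further nuclei with at least 4 marker UMIs were left out by cilium genes alone, and replicate 1 held none.

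In all, 437 nuclei of the library reached 4 UMIs of both markers together. Cilium genes alone removed 52 of them, the other markers alone removed 35, and both removed 12. The 35 included 10 nuclei with at least 2 UMIs of Skap1, 7 of Ptprc and 6 of Lhcgr. The nuclei removed by cilium genes alone had a median of 2774.5 UMIs, against 1768 in the members, and whether they were doublets or held both programmes was not tested. The value at the limit was not a gap in the data, since 60 members had exactly 4 marker UMIs and 63 nuclei that met the other limits had 3.

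Levels of genes that the rule did not use were read along the marker count. Mecom was at 75.3 CPM in nuclei with 0 marker UMIs that met the other limits, at 556 CPM with 1, 1371 CPM with 2 and 1908 CPM with 3. In members it was at 2412 CPM with 4 marker UMIs, 2817 CPM with 5 to 9 and 2891 CPM with 10 or more. Padi1 was at 762 CPM just outside the limit (interval 612 to 937 CPM) and at 1040 CPM just inside it (846 to 1265 CPM), and Plekhs1 was at 736 and 1029 CPM. Other genes were lower just inside the limit than just outside it: Cftr was at 322 against 539 CPM, Ltf at 374 against 573 CPM and Abcb5 at 249.5 against 445 CPM. Cyp11a1, the first enzyme of steroid synthesis, was at 193 CPM with 0 marker UMIs, 59.9 CPM with 3, 104 CPM with 4 and 47.65 CPM with 10 or more. The nuclei just outside the limit thus stood closer to the members than to the nuclei without marker UMIs for Mecom, Padi1 and Plekhs1. Median depth was 1464 UMIs at 0 marker UMIs and 2183 UMIs at 10 or more, and the median mitochondrial share was 5.67% and 0.602%.

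**Figure D2:**
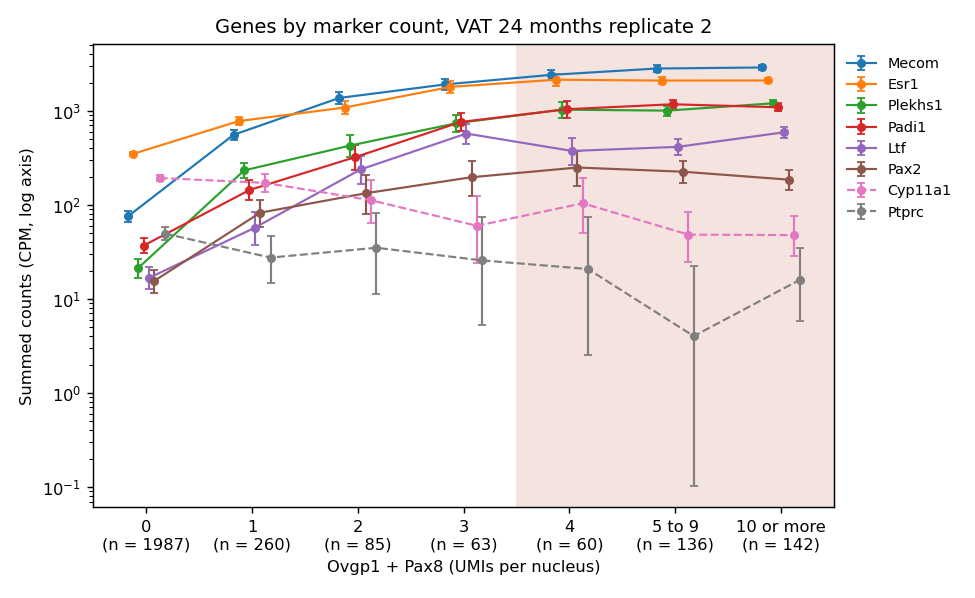
Summed level in CPM (log axis) of 8 genes in nuclei of VAT 24 months replicate 2 grouped by their UMIs of Ovgp1 and Pax8, with exact Poisson 95% intervals and the number of nuclei under each group. The shaded groups are the members. Mecom, Padi1, Plekhs1 and Ltf were ranked high in members against nuclei with at most 1 marker UMI, so their rise was partly fixed by choice. Mecom, Esr1, Plekhs1, Padi1, Ltf and Pax2 climbed up to 3 marker UMIs, whereas Cyp11a1 (dashed) did not climb, and Ptprc (dashed) was held low in every group by the rule.

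Free RNA in the suspension can place UMIs in nuclei that do not express a gene. Among 426 immune nuclei of the same library, chosen without any limit on Ovgp1 or Pax8, 7.98% held an Ovgp1 UMI (interval 5.59 to 10.97%) at a median depth of 1420 UMIs. Pax8 was seen in 2.58% of them and Mecom in 4.695%. Of the members, 94.7% held Ovgp1, 64.2% Pax8 and 88.2% Mecom, and the first 2 shares follow from the rule. Mecom was named because it ranked high in these same members against other nuclei of the library, so its share was partly fixed by that choice.

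Levels of markers of other cell types are given next as a description. The rule capped the cilium genes and 6 markers of other types in members but not in the nuclei they are set against, so lower levels of immune, mesothelial, steroidogenic, endothelial, adipocyte and multiciliated markers were partly fixed by the choice, also with the rule genes left out. Counted here are genes with at least 30 UMIs in the members or in the other nuclei, defined as the 4390 kept nuclei of the library with at most 1 UMI of Ovgp1 and Pax8. Multiciliated, steroidogenic, mesothelial and immune nuclei of the library are used beside them, each with at least 4 UMIs of its own markers and at most 1 UMI of each other marker sum. A gene is called at least 2-fold higher or lower after adding 10 CPM to both levels. Of 15964 such genes, 6.09% were at least 2-fold higher in members and 9.75% at least 2-fold lower. Immune markers were lower for 5 of 5 measured, fibroblast markers for 5 of 5, steroidogenic ovarian markers for 5 of 6, mesothelial markers for 4 of 5, endothelial markers for 3 of 4, multiciliated markers outside the rule for 3 of 11, granulosa markers for 3 of 6, adipocyte markers for 2 of 4, and smooth muscle markers for 0 of 4, and none of these lists had a gene at least 2-fold higher. The summed markers, rule genes left out, were at 42.9 CPM in members and 336 CPM in other nuclei for the immune list, 58.1 and 398 CPM for the fibroblast list, 162 and 2035 CPM for the steroidogenic list, 201 and 1283 CPM for the mesothelial list, and 20.75 and 45.5 CPM for the smooth muscle list. Adiponectin (Adipoq), the adipocyte hormone, was at 27.7 CPM in members and 64.75 CPM in other nuclei.

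Pax8 is shared with other organs. Of 12 thyroid and kidney genes, 3 were measured, 1 was higher and 0 lower, with a median log2 ratio of -0.51, and 5 were at 0 in the members (among them Nkx2-1, Foxe1, Umod and Nphs1), and thyroglobulin (Tg) had 3 UMIs. Lrp2, an endocytic receptor of many epithelia, was the higher one, at 94.1 CPM against 23.0 CPM in other nuclei. The thyrotropin receptor gene Tshr was not in this list, and it was higher in members than in other nuclei, as given further on. Of the mammary list, Ltf was higher, Trf was lower at 15.2 against 64.75 CPM, and the milk protein genes Csn2, Csn3 and Wap were at 0. The label itself rests on 2 markers, both used by the rule, so the name oviduct secretory-like is a candidate identity.

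The leading genes were described next. Since the rule used Ovgp1 and Pax8 in the same nuclei, this contrast is a description. Ovgp1 itself was at 4645 CPM in members (interval 4489 to 4805 CPM) and 44.8 CPM in other nuclei, and Pax8 at 892.5 CPM (825 to 964 CPM) and 14.98 CPM. At least 4-fold higher levels were found for 299 genes, or 1.87% of those counted. The number depends on the prior, and was 102 with 50 CPM and 484 with 1 CPM added in place of 10. The 20 leading genes, ranked by the ratio of CPM + 10, were Padi1, Mecom, Plekhs1, Abcb5, Cntnap3, Mir100hg, Lrrc31, Far2os1, Ltf, Rmst, Atp13a5, Bcat1, Rnf128, Cndp1, Sox2ot, E230016K23Rik, Bmpr1b, Cbs, Slc25a48 and Alox15. Their levels in members ran from 279.5 to 2802 CPM, and their ratios to other nuclei from 17.8 to 51.0. The same genes ran from 0 to 31.3 CPM in immune, from 0 to 77.1 CPM in mesothelial, from 0 to 145 CPM in steroidogenic and from 5.89 to 471 CPM in multiciliated nuclei. The 20 genes were seen in 46 to 298 of the 338 members, and Abcb5 was the one seen in 46.

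Padi1, which converts arginine in proteins to citrulline, was at 1112 CPM in members (interval 1037 to 1192 CPM) and at 29.95 CPM in other nuclei, a ratio of 37.1 (32.25 to 42.9). Mecom, a zinc finger transcription factor, was at 2802 CPM (2681 to 2927 CPM) against 91.9 CPM, a ratio of 30.5. On the scale of CPM + 10, and with nuclei limited to a mitochondrial share under 5%, the ratio went from 28.1 to 18.03 for Padi1, from 27.6 to 15.2 for Mecom and from 27.35 to 17.0 for Plekhs1. Mecom lies on chromosome 3 at 30005439 to 30602157 (GRCm39), and the leading gene Lrrc31 lies on the same chromosome at 30730244 to 30754554. Lrrc31 was at 408 CPM against 10.8 CPM. Plekhs1, which encodes a protein with a pleckstrin homology domain, was at 1111 CPM against 31.0 CPM.

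Several leading genes encode enzymes. Bcat1, which takes the amino group from branched-chain amino acids, was at 760 CPM in members and 33.8 CPM in other nuclei. Cbs, which joins serine and homocysteine, was at 523 and 22.7 CPM, and the lipoxygenase Alox15 at 302 and 10.1 CPM. The ubiquitin ligase Rnf128 was at 1688 and 88.0 CPM, and the BMP receptor Bmpr1b at 1808 and 101.5 CPM. Mir100hg, Rmst, Sox2ot, Far2os1 and E230016K23Rik are long non-coding RNAs, at 293 to 1498 CPM in members. Sox2ot and Far2os1 overlap or oppose other genes, and the strand setting of the counting is not given in the sources used here.

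The leading genes were not all seen together in a nucleus. Of Padi1, Mecom, Plekhs1, Abcb5 and Cntnap3, at least 3 were seen in 60.7% of members and none in 19 members. At least 3 were also seen in 33 of the 63 nuclei just outside the limit, in 0 of 84 multiciliated nuclei, in 0 of 413 immune nuclei, and in 20 of 1987 nuclei that had 0 marker UMIs and met the other limits. These genes lead the ranking of members against other nuclei, which include the multiciliated and immune nuclei and those with 0 marker UMIs. Their rarity in those sets was therefore partly fixed by the choice.

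To see how the members stood in known gene families, 13 lists with 198 genes were used, of which 151 genes were measured. At least 2-fold higher were 52 of these (34.4%) and at least 2-fold lower 26 (17.2%), against 6.09% and 9.75% of all 15964 genes. The lists were chosen with earlier results of these data known, so their shares are a description. The median gene of all 15964 had a log2 ratio of -0.15, and the medians of the lists are given beside it.

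Transcription factors of the Mullerian duct came first. Of 11 measured, 5 were higher and 1 lower, with a median log2 ratio of 0.99. Pax2, the paralogue of Pax8 in this lineage, was at 208 CPM in members (interval 176 to 243.5 CPM) and 17.1 CPM in other nuclei, and it had 0 UMIs in multiciliated nuclei. Sox17 was at 227 CPM against 13.8 CPM, and at 53.0 CPM in multiciliated nuclei. The homeobox genes Meis1 and Meis2 were at 814 and 791 CPM against 231 and 209 CPM. Wt1 was lower, at 259 CPM (223 to 299 CPM) against 545 CPM in other nuclei, a ratio of CPM + 10 of 0.485. This call was lost under 5 other settings, with ratios of 0.547 to 0.661, among them 0.581 with a mitochondrial limit of 5% and 0.637 over every deposited barcode. Wt1 was at 1145 CPM in mesothelial nuclei, which also use this gene, and at 359 CPM in multiciliated nuclei. Emx2 was at 115 CPM in members and 126 CPM in other nuclei, and Lhx1 had 2 UMIs.

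HOX genes, which mark position along the reproductive tract, were nearly silent. Of 10, 7 were at 0 in members (Hoxa10, Hoxa13, Hoxc8, Hoxd9, Hoxd10, Hoxd11, Hoxd13), for which a floor of 3 counts allows up to 4.15 CPM each and the exact interval up to 5.10 CPM. Hoxa7, Hoxa9 and Hoxa11 had 4 UMIs together. These genes were also low in the other nuclei, at 27.5 CPM summed, so little could be told apart at this depth.

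Genes known from uterine epithelium were present as well. Of 7 measured, 5 were higher (Ltf, Calb1, Wnt7a, Msx1, Ihh) and 1 lower (Klk1), with a median log2 ratio of 2.01. Ltf, the oestrogen-responsive iron-binding protein lactotransferrin, was at 501 CPM (interval 451 to 555 CPM) against 16.9 CPM. With the mitochondrial limit of 5%, its ratio of CPM + 10 went from 18.97 to 11.1. Calb1, a calcium buffer, was at 234 CPM against 8.18 CPM, and it was at 0 in multiciliated and mesothelial nuclei. The signalling protein Ihh was at 44.3 CPM against 3.46 CPM, Msx1 at 62.3 against 2.995 CPM, and Klk1 at 2.77 against 37.6 CPM. Wnt7a had 27 UMIs in the members. Foxa2, a gland factor, had 3 UMIs, and Prss28, Prss29 and Cxcl15 were at 0. Oviduct and uterus cannot be told apart by this list.

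Hormone receptors were split. Of 13 measured, 4 were higher and 4 lower, with a median log2 ratio of -0.23. Esr1, the oestrogen receptor alpha gene, was at 2106 CPM in members (interval 2001 to 2214 CPM), with UMIs in 302 of 338 nuclei. It was at 334 CPM in other nuclei, 477 CPM in multiciliated, 464.5 CPM in mesothelial and 127 CPM in steroidogenic nuclei. The progesterone receptor Pgr was at 243.5 CPM (209 to 282 CPM) against 19.8 CPM, a ratio of 12.3. The prostaglandin receptor Ptger4 was at 70.6 against 15.8 CPM. The lower genes were the growth hormone receptor Ghr (412 against 1182 CPM), the glucocorticoid receptor Nr3c1 (85.8 against 183 CPM), the mineralocorticoid receptor Nr3c2 (118 against 279 CPM) and the prolactin receptor Prlr (13.8 against 69.8 CPM). Esr2 had 3 UMIs in members.

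The thyrotropin receptor gene Tshr, in none of the 13 lists and named after its values were seen, was at 975.5 CPM in members (interval 905 to 1050 CPM). It was seen in 219 of 338 members. Its level was 23.6 CPM in multiciliated, 8.56 CPM in mesothelial and 14.2 CPM in immune nuclei, and 172 CPM over all other nuclei. The paper uses Tshr as a marker of its adipocyte group Adipocyte1. No set of adipocyte nuclei was formed here, so Tshr cannot be called particular to the members.

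Epithelial genes were higher for 12 of 21 measured and lower for 1, with a median log2 ratio of 1.30. Cdh1, the epithelial cadherin, was at 243.5 CPM against 57.1 CPM in other nuclei. The factors Grhl2, Ehf and Elf3 were at 230, 403 and 96.9 CPM against 19.2, 35.7 and 9.10 CPM. The splicing regulator Esrp1 was at 118 against 12.9 CPM and the tight junction gene Cldn7 at 101 against 11.98 CPM. Cldn10, Tjp3, Esrp2, St14, Spint1 and Spint2 were the others that were higher, at 49.8 to 486 CPM, and Grhl1 was lower, with 4 UMIs. The general markers Epcam and Krt7 did not set the members apart, at 160.5 against 111 CPM and 177 against 191 CPM. Mesothelial nuclei held 212 and 438 CPM. The basal keratin Krt5 was at 0.

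Epithelial nuclei of SAT gave an outside comparison. They held at least 3 UMIs of Epcam, Cdh1, Esrp1 and Grhl2 together, with no marker sum of the other types above 1, Ovgp1 and Pax8 included. They numbered 246, 159, 222 and 400 in the 4 SAT libraries. Those 4 genes therefore chose the nuclei. Their mean level is given as CPM ± SD over these libraries (n = 4, both ages). Mecom was at 9.75 ± 4.745 CPM, Padi1 at 5.45 ± 2.59 CPM and Plekhs1 at 50.8 ± 25.5 CPM, far under the members. Pax2 was at 1.22 ± 0.90 CPM, Sox17 at 0.775 ± 0.909 CPM and Wt1 at 0.169 ± 0.338 CPM. Cftr was at 0.502 ± 0.587 CPM and Calb1 at 0.436 ± 0.873 CPM. Each of the 4 libraries was lower than the members for all 8 genes.

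Other genes went the opposite way. Prlr was at 1352 ± 351 CPM in SAT epithelium against 13.8 CPM in members, and the milk protein gene Csn3 at 1178 ± 472 CPM against 0. Areg was at 2122 ± 1064 CPM against 2.77 CPM, and Epcam at 1415 ± 284 CPM against 160.5 CPM, although Epcam was used to choose them. Ltf overlapped, with 422 to 1692 CPM in the 4 libraries and 501 CPM in members. Ehf was at 113 to 326.5 CPM in SAT epithelium and 403 CPM in members. Pgr was higher in each SAT library, at 298 to 1478 CPM, and Esr1 was lower in each, at 306 to 579 CPM.

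**Figure D3:**
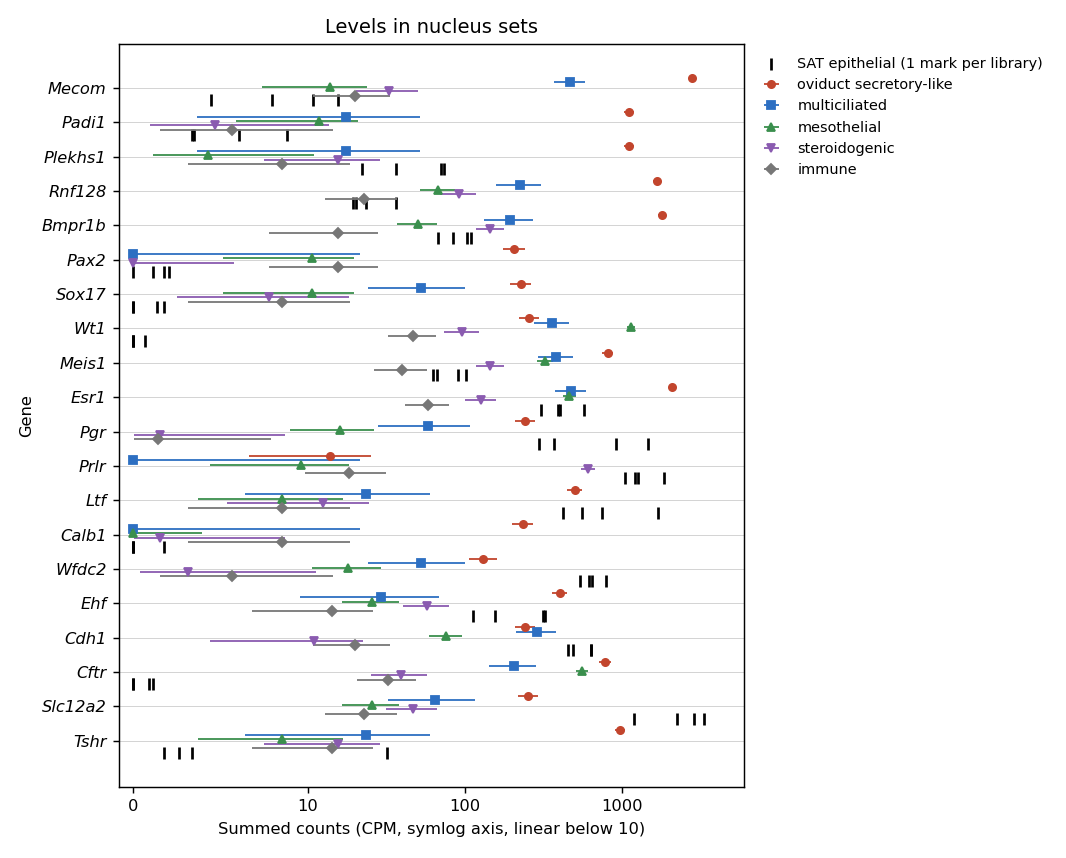
Summed level in CPM (symlog axis, linear below 10) of 20 genes in the members and in 4 other nucleus sets of VAT 24 months replicate 2, with exact Poisson 95% intervals, and in the epithelial nuclei of each SAT library (black marks). The members lie highest for Mecom, Padi1, Plekhs1, Rnf128, Bmpr1b, Pax2, Sox17, Meis1, Esr1, Calb1, Ehf, Cftr and Tshr, whereas the SAT epithelium lies highest for Pgr, Prlr, Wfdc2 and Slc12a2, and for Cdh1, which was used to choose them. No set of adipocyte nuclei is shown.

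Secretion genes were then read. Of 11 measured genes for proteins secreted in the tract, 3 were higher (Wfdc2, Muc1, Tgfb2) and 5 lower (Muc16, Clu, Cst3, Igfbp5, Lgals3bp), with a median log2 ratio of 0.11. Wfdc2, a protease inhibitor known as HE4, was at 131 CPM in members against 13.8 CPM. The mucin gene Muc1 was at 63.65 against 4.49 CPM, and the growth factor Tgfb2 at 101 against 21.0 CPM. The large mucin gene Muc16 was at 20.8 CPM against 229 CPM in other nuclei, and it was at 526.5 CPM in mesothelial nuclei. Igfbp5 was at 80.25 against 488 CPM and clusterin (Clu) at 144 against 305.5 CPM. Cst3 had 26 UMIs in members and Lgals3bp had 12. Dcpp1, Dcpp3 and Chil1 were at 0, and complement C3 was at 509 against 376 CPM.

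Genes for glycoprotein making were higher for 9 of 19 measured and lower for 3, with a median log2 ratio of 0.87. Spdef, a factor of mucus-secreting cells, was at 63.65 CPM against 2.42 CPM in other nuclei, and the disulfide isomerase Agr2 at 41.5 against 2.65 CPM. The fucosyltransferase Fut9 was at 237 CPM (interval 203 to 275 CPM) against 12.9 CPM. Galnt3, which starts O-linked sugar chains, was at 65.03 against 4.84 CPM, and Gcnt1, which branches them, at 102 against 19.7 CPM. The secretory pathway factor Creb3l2 was at 250 against 89.3 CPM. Galnt12, Fut2 and B3galt5 were also higher, at 35.97 to 76.1 CPM. The sialyltransferase St6gal1 was lower, at 118 against 282 CPM, as were Galnt6 and Chst4, with 5 and 3 UMIs in members.

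Fluid transport genes were higher for 5 of 16 measured and lower for 1, with a median log2 ratio of 0.33. The chloride channel Cftr was at 784.5 CPM (interval 721 to 852 CPM) against 311 CPM in other nuclei. Among those, mesothelial nuclei held 562 CPM. With the mitochondrial limit of 5%, its ratio of CPM + 10 went from 2.475 to 4.04. The chloride loader Slc12a2 was at 253 against 37.9 CPM, the potassium channel Kcnq1 at 198 against 61.75 CPM, the water channel Aqp5 at 48.4 against 4.72 CPM, and the carbonic anhydrase Car12 at 60.9 against 16.5 CPM. The bicarbonate transporter Slc4a4 was at 268 against 141 CPM and 5.89 CPM in multiciliated nuclei. Aqp1 was lower, at 4.15 against 85.5 CPM, and Slc26a4 was at 0.

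Few mucosal defence genes were seen. Of 15, 7 were measured, 1 was higher (Lcn2) and 1 lower (Saa3), with a median log2 ratio of 0.59. Lcn2, which binds bacterial siderophores, was at 162 CPM in members against 27.1 CPM. Lyz1, Saa1, Saa2, Saa3, Tff3, Bpifa1 and Ido1 were at 0.

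Signalling genes were higher for 6 of 19 measured and lower for 4, with a median log2 ratio of 0.49. The Notch receptor gene Notch3 was at 85.8 against 10.7 CPM, the Notch ligand gene Jag1 at 145 against 26.15 CPM, Notch2 at 234 against 100.5 CPM and the target gene Hes1 at 154 against 57.3 CPM. The R-spondin receptor Lgr4 was at 284 against 75.35 CPM and Wnt5a at 127 against 36.5 CPM. The Lgr4 relatives Lgr5 and Lgr6 were lower, at 26.3 against 507 CPM and 34.6 against 211.5 CPM, and mesothelial nuclei held 972 and 395 CPM of them. The Wnt target Axin2 was at 27.7 against 106 CPM. Dll1, a Notch ligand gene like Jag1, was the other lower gene, at 0 in members against 11.98 CPM, and Wnt9b was at 0.

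Of 11 measured genes of the cell cycle and its arrest, 0 were higher, 4 were lower (Mki67 and Ccnd2, which act in cycling cells, and the inhibitors Cdkn1a and Cdkn1c) and 7 lay between, with a median log2 ratio of -0.56. Mki67 was at 19.4 CPM in members, seen in 6 nuclei, against 126 CPM in other nuclei and 708 CPM in immune nuclei. Ccnd2 was at 34.6 against 155.5 CPM. Cdkn1a and Cdkn1c had 4 and 0 UMIs in members. The senescence gene Cdkn2a had 1 UMI.

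The members were then set beside the 84 multiciliated nuclei of the library, with 169859 UMIs against 722726 in the members. They held at least 4 UMIs of the cilium genes and at most 1 of Ovgp1 and Pax8, so both markers and the 4 cilium genes differ by choice. Of 5685 genes measured in this contrast, 399 (7.02%) were at least 4-fold higher in members and 312 (5.49%) at least 4-fold lower. The median gene had a log2 ratio of 0.47. The 10 genes that were highest in members were Cntnap3, Padi1, Plekhs1, Atp10b, ENSMUSG00000121444, Tshr, Col23a1, Veph1, Calb1 and Mir100hg. Padi1 was at 17.7 CPM in multiciliated nuclei, with 3 UMIs, a ratio of 63.0 (interval 21.5 to 306). Atp10b, a lipid-transporting ATPase, and the collagen gene Col23a1 had 0 UMIs there and were at least 16.6-fold and at least 14.96-fold higher in members, taking 3 UMIs as the floor of the multiciliated set. Calb1 was at least 13.2-fold higher by the same floor. Mecom and Esr1 were shared with multiciliated nuclei to some degree, at 471 and 477 CPM there, with ratios of 5.95 (4.76 to 7.535) and 4.42 (3.53 to 5.59).

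The 10 genes that stood highest in multiciliated nuclei were Ccdc180, Cfap65, Dnah3, Rgs22, Cdhr3, Gm867, Tmem212, Cfap100, Wdr49 and Cfap43. Several encode parts of motile cilia. They were at 960 to 3067 CPM there and at 1.38 to 29.1 CPM in members. Foxj1, the master factor of motile cilia, was at 1036 CPM in multiciliated nuclei and 19.4 CPM in members, a ratio of 53.5 (interval 31.0 to 99.9). Among 10 measured regulators of the multiciliated programme, 1 was at least 2-fold higher in members than in other nuclei (Gmnc, which starts the programme, at 22.1 against 4.95 CPM) and 1 lower (Ccdc78, with 1 UMI), with a median log2 ratio of -0.38. Mcidas and Ccno were at 0. Gmnc was at 53.0 CPM in multiciliated nuclei.

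Members varied among themselves. Ovgp1 ran from 0 to 120 UMIs per nucleus with a median of 6, and Pax8 from 0 to 16 with a median of 1. Both were seen in 199 members, Ovgp1 alone in 121 and Pax8 alone in 18. After thinning each nucleus to 1000 UMIs, the 10 genes with the largest variance over mean among 2355 ranked were mt-Cytb, mt-Co1, Apoe, mt-Nd1, Abcb5, Kcnip4, mt-Nd4, Malat1, mt-Rnr2 and Rn18s-rs5. Most of these are mitochondrial or ribosomal or the nuclear RNA Malat1. The mitochondrial share was 5% or more in 58 members, with a median of 0.659% and a highest value of 14.9%. Apoe, which carries lipids, had 29 UMIs in 1 nucleus. Abcb5, a transporter of the ABC family, was seen in 46 members and reached 110 UMIs in 1 of them, whereas Kcnip4 was seen in 39.

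The members with little Ovgp1 were set apart from the others. The rule admitted 28 nuclei with 0 or 1 UMI of Ovgp1 mainly through Pax8, with a median of 2154 UMIs, and 272 nuclei held at least 4 UMIs of Ovgp1. In the former, Mecom was at 1075 CPM (interval 849 to 1344 CPM) against 2978 CPM in the latter, Padi1 at 363 against 1172 CPM, Plekhs1 at 447 against 1199 CPM and Cftr at 265 against 883 CPM. The 20 leading genes were ranked over a set in which most nuclei held at least 4 UMIs of Ovgp1, so lower levels of Mecom, Padi1 and Plekhs1 in the rest were partly fixed by the choice. Sox17 had 3 UMIs in these 28 nuclei and Abcb5 and A2ml1 had 1 each. Esr1 was at 1494 against 2143 CPM, Pgr at 307 against 215.5 CPM and Meis1 at 978 against 816 CPM.

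Other genes were higher in the Ovgp1-low nuclei. Zfpm2, a cofactor of GATA factors, was at 1313 CPM against 49.6 CPM, with UMIs in 16 of 28 nuclei. The heparan sulfatase Sulf1 was at 852 against 63.3 CPM, and Rspo1, a ligand that strengthens Wnt signals, at 391 against 32.5 CPM. Wt1 was at 517 against 239.5 CPM. Abcb1b was at 628.5 against 5.13 CPM, but its 45 UMIs lay in 4 nuclei. Since these nuclei reached the limit mainly through Pax8, their Pax8 level of 2179 CPM follows from the rule, and whether they are the same cell type was not tested.

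Abcb5 was read as a second split, chosen after its values were seen. At least 2 UMIs of Abcb5 were held by 35 members and 0 by 292, with 11 at 1 UMI between them. Median depth was 1646 and 1786 UMIs, and the median mitochondrial share 0.439% and 0.718%. Nuclei of 1 library are not replicates, so this split is a description. The rule admitted both groups by the sum of Ovgp1 and Pax8, so like levels of these 2 genes follow from it. Ovgp1 was at 3983 CPM in the Abcb5-positive and 4756 CPM in the Abcb5-negative members, Pax8 at 747 and 944 CPM, and Esr1 at 2365 and 2043 CPM. Pax2 was at 170 and 199 CPM, Sox17 at 204 and 227 CPM and Tshr at 973 and 987 CPM. The counting intervals of these ratios included 1 for Pax8, Esr1, Pax2, Sox17 and Tshr but not for Ovgp1 (0.748 to 0.936). They leave out the spread between nuclei, so they cannot tell which levels differ.

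Genes that were higher with Abcb5 included Padi1, at 2704 CPM (interval 2372 to 3070 CPM) against 798 CPM. Its relative Padi2 was at 554 against 58.1 CPM. The extracellular peroxidase Gpx3 was at 962 against 121 CPM, the chemokine gene Ccl28 at 407 against 51.4 CPM and the carbonyl reductase Cbr2 at 962 against 144 CPM. Ntm, a neuronal adhesion protein, was at 1188 against 192.5 CPM, and the homeobox gene Msx1 at 238 against 34.9 CPM. Zfp804b was at 713 against 41.5 CPM.

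Other genes were lower in the Abcb5-positive members, several of them at or near 0. Wt1 and Slc4a4 had 1 UMI each there and were at 307 and 319 CPM in the Abcb5-negative members. The glutamate transporter Slc1a3 and the myosin kinase Mylk had 3 UMIs each there, against 884 and 796.5 CPM. The synaptic adhesion gene Nlgn1 was at 0 there and at 418 CPM in the Abcb5-negative members, at least 12.3-fold higher with 3 UMIs as the floor. Wnt16 and Jag1 were also at 0, and the Abcb5-negative members were at least 6.70-fold and at least 4.94-fold higher. Meis1 was at 362 against 883 CPM, Cftr at 238 against 901 CPM and Ltf at 147 against 566 CPM.

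**Figure D4:**
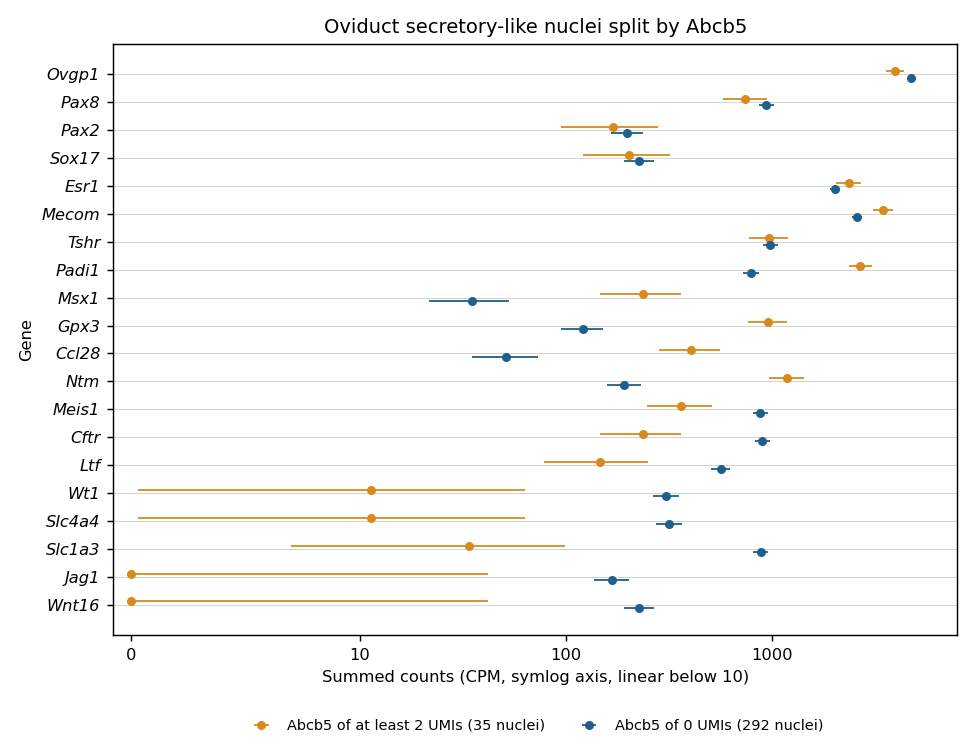
Summed level in CPM (symlog axis, linear below 10) of 20 genes in the 35 members with at least 2 UMIs of Abcb5 and the 292 members with none, with exact Poisson 95% intervals. Ovgp1, Pax8, Pax2, Sox17, Esr1 and Tshr lie close together, Padi1, Msx1, Gpx3, Ccl28 and Ntm lie higher with Abcb5, and Wt1, Slc4a4, Slc1a3, Jag1 and Wnt16 lie near or at 0 with Abcb5.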

How the data were processed

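Nuclei of inguinal and gonadal fat were sequenced with Singleron reagents, and the authors aligned the reads and counted UMIs with Celescope on GRCm39. The version is not given in the sources used here. The deposited matrices hold raw counts of UMIs for 56980 genes per barcode, without normalization, with 1 matrix for each of the 6 libraries and at least 500 UMIs per barcode. Nuclei with over 500 genes, over 1000 UMIs and a mitochondrial share under 15% were kept. Members were chosen by the counts given in the report. The members, gene lists and splits were chosen with earlier results of these data known.

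Counts were summed over the nuclei of a set and divided by the summed UMIs to give CPM, with exact Poisson 95% intervals. Ratios carry exact conditional intervals, shares exact Clopper-Pearson intervals, and a count of 0 a floor of 3 counts. UMIs count molecules, and all these intervals cover counting error only. Genes were ranked and called by the ratio of CPM + 10 among those with at least 30 UMIs in either set. All members lay in 1 library, nuclei are not replicates, and no p-value was computed. The named genes were those of the 13 lists, the 20 with the highest ratio to other nuclei, the 10 with the highest ratio in each direction against multiciliated nuclei, and the 10 with the largest variance over mean after thinning to 1000 UMIs. A few genes of the lists are counted in the totals but not reported here by name. Genes of the splits and Tshr were named after their values were seen. Positions are from GENCODE M39 (GRCm39), with 98.7% of gene identifiers matched, and upstream sequences from RefSeq (GRCm38.p6). Doublets were not removed, and Scrublet was run as an alternative. Alternatives changed the marker minimum, the exclusions, the filters, the prior and the scaling. The scripts were tested on simulated data. Scrublet was run through scanpy 1.11.5, figures were drawn with matplotlib 3.10.9, and all else used Python 3.11.15 with scipy 1.17.1, pandas 2.3.3 and numpy 2.4.6.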

Additional observations from a re-analysis of the deposited data

Results flagged for a closer look

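Barcodes outside the filters also carried the markers. In VAT 24 months replicate 2, 140 barcodes that were removed for few genes, few UMIs or a high mitochondrial share met the same marker counts, 2.23% of the 6271 removed. The 140 had a median depth of 946 UMIs, and 45 of them failed the mitochondrial limit alone. No removed barcode of the other 5 libraries met the counts. Summed over the 140 barcodes, Mecom was at 1344 CPM (95% interval 1186 to 1518 CPM), Padi1 at 576 CPM and Plekhs1 at 981 CPM, against 123, 25.5 and 37.5 CPM in 5903 removed barcodes with at most 1 UMI of Ovgp1 and Pax8. Ltf was at 965 CPM and Esr1 at 1204 CPM, against 27.7 and 199 CPM. Abcb5 had 12 UMIs and was at 62.3 against 20.4 CPM, far under its level in the kept members. Cyp11a1 was at 83.05 against 1827 CPM. Wt1, lower in the kept members than in other nuclei, was at 234 against 179 CPM here, a ratio of 1.30 (0.945 to 1.76).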

How the results depend on the processing

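The number of members rests on 1 library, and without one or the other VAT library it was 0 to 338. The share in VAT 24 months replicate 2 was 7.91% with at least 3 marker UMIs, 4.79% with at least 6, 5.37% with Ovgp1 alone at 4 UMIs, and 3.51% (178 members) with Pax8 alone at 2 UMIs. It was 4.50% with exclusion sums of 0, 8.62% with no exclusion and 4.215% over every deposited barcode. With a mitochondrial limit of 5% it was 11.1%, since 2518 of 5070 nuclei then remained. VAT 24 months replicate 1 held 0 members under these settings, except 1 with no exclusion. Genes at least 4-fold higher numbered 102 with a prior of 50 CPM and 484 with a prior of 1 CPM, against 299. The other settings gave 228 to 316 genes. Of 144 ratios of CPM + 10 recomputed for 12 genes under 12 settings, Scrublet left out, 109 stayed within the counting interval, 35 moved beyond it and 0 changed direction. Moves of over 1.5 times came with the mitochondrial limit of 5%, where Mecom went from 27.6 to 15.2, Padi1 from 28.1 to 18.0, Plekhs1 from 27.35 to 17.0, Ltf from 18.97 to 11.1 and Cftr from 2.475 to 4.04, and with Pax8 alone, where Padi1 went to 16.2. Leaving out the 28 Ovgp1-low or the 35 Abcb5-positive members, chosen after seeing the data, gave 312 and 291 genes, of which 295 and 278 were among the 299. Scrublet marked 3 nuclei (0.0592%) in replicate 2 and no member, a rate at which it has not worked, so doublets were not assessed. No paired analysis was possible because the results come from no test.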
